A study of Homo sapiens with 14 samples.

Results

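The kallikrein-related peptidases are secreted serine proteases, and the genes KLK5 to KLK14 lie side by side in a cluster on the long arm of chromosome 19. These 10 genes were chosen by symbol, each had 1 row of the value table, and together they are 10 of 18398 genes measured. The choice was made with earlier results of these arrays known, in which KLK10 stood among the genes of smallest p for sublines grown without inhibitor against parental cells. Member values of that comparison are therefore given as a description without p-values, and nothing is read from its counts of calls.

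The established human cell line OVCAR-3 comes from an ovarian carcinoma, and 5 resistant sublines were derived from it independently with PHA-533533, which inhibits the cell cycle kinase CDK2. RNA was measured on 14 Affymetrix whole-transcript arrays, namely 4 of untreated parental cells and 2 of each subline, R1, R3, R5, R6 and R7. The array called selected was taken at passage 5 or later with 4 µM of the inhibitor in the medium. The array called stable came from cells kept in 0 µM until at least passage 10. Parental and resistant cells shared the same culture medium, and inhibitor and passage changed together, so the effects of inhibitor and passage cannot be told apart. Each subline was arrayed once per state, so the 5 arrays of a state are 5 sublines and not repeats of 1 subline. Whether the 4 parental replicates came from separate cultures is not stated, so p-values in comparisons with parental cells rest on a spread that may be technical.

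Kallikrein-related peptidases are made as inactive proenzymes that other proteases, including other kallikreins, cut into their active form. In the outer skin KLK5, KLK7 and KLK14 form such a cascade and loosen the desmosomes between cells, and trypsin-like members can also cut protease-activated receptors. Several members are known to be raised in ovarian carcinoma, where KLK6 and KLK10 in particular have been studied as serum markers.

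Values are log2 signals. Base 2 was inferred from their span, 4.34 to 14.9, and the number of arrays limits their precision. Signals of different genes come from different probes and are not compared with each other. A marker list for ovarian carcinoma and epithelium (14 of 14 genes measured) averaged 10.59 to 11.15 per array, while fibroblast (7 of 7), leukocyte (6 of 7) and endothelial (5 of 5) lists averaged 6.32 to 7.14, with ranges that overlapped between the 3 groups. Averages hide single genes. Of the 14 carcinoma markers 8 had an unadjusted limma p under 0.05 for selected against parental (3735 of all 18398 genes), with 0 called, and 11 of the 14 differences lay above 0. Every selected array lay above every parental one for EPCAM and below for MSLN. For selected against stable 1 of the 14 was called higher. As a measure of each array's background signal, 337 olfactory receptor genes, a family not used by most tissues, were averaged. This mean spanned 6.16 to 6.71 over parental arrays, 6.06 to 6.60 over selected arrays and 6.18 to 6.69 over stable arrays, and the relation of each member to it is given after the values.

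The stretches of 250 bases before the outermost RefSeq start site of KLK5, KLK7 and KLK10 are shown because these 3 genes carried the differences described next (RefSeq, GRCh38.p14, gene strand, 5′ to 3′). Capitals mark the GC box, searched as GGGCGG on both strands.
KLK5 (chr19:50953039-50953288, minus strand): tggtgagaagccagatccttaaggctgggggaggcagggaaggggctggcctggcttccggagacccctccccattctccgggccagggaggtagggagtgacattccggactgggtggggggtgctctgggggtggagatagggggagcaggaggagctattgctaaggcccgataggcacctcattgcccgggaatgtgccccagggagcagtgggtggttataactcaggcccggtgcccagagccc
KLK7 (chr19:50984065-50984314, minus strand): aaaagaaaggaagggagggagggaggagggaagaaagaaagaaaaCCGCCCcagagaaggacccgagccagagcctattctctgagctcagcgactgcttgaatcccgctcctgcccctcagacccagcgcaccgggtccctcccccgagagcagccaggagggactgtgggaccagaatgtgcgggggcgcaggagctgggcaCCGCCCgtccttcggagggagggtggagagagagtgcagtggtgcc
KLK10 (chr19:51019862-51020111, minus strand): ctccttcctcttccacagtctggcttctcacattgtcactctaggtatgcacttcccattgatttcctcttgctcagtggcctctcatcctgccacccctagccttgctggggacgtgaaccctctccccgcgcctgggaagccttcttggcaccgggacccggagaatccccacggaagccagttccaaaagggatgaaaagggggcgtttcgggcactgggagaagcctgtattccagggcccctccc
Only KLK7 of the 3 held the GC box, at 2 places. Of the 9 members with a RefSeq promoter sequence, 4 held it (KLK6, KLK7, KLK9 and KLK13), against 42.2% of 27305 promoters of the same length. The letters of the TATA box (TATAAA, 11.2% of promoters), the AP-1 element (TGANTCA, 6.57%), the nuclear receptor half-site (AGGTCA, 12.2%) and the androgen and glucocorticoid receptor half-site (AGAACA, 12.4%), searched the same way, were in 0 of the 9 windows.

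KLK5, a trypsin-like protease that activates other kallikreins in skin, was higher in selected than in parental cells. The 4 parental arrays read 9.74, 9.82, 10.08 and 9.56, and the selected arrays of R1, R3, R5, R6 and R7 read 10.29, 10.49, 10.37, 10.56 and 10.26. Every selected array lay above every parental one. The means were 10.39 ± 0.13 (SD, n = 5) and 9.80 ± 0.22 (SD, n = 4), a difference of 0.60 (SE 0.11, limma adjusted p = 0.00791 over all genes). This call held in all 17 alternative settings of this comparison, with a difference of 0.52 to 0.69 and an adjusted p of 0.00135 to 0.0428.

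KLK7, the chymotrypsin-like partner of KLK5 in skin, was also higher in selected cells. Parental arrays read 8.46, 8.36, 8.44 and 8.40, and the selected arrays of R1, R3, R5, R6 and R7 read 8.96, 8.90, 8.51, 9.10 and 9.11. The groups did not overlap, although R5 lay just above the highest parental array. The difference was 0.50 (SE 0.11, limma adjusted p = 0.0238) between a selected mean of 8.92 ± 0.25 (SD, n = 5) and a parental mean of 8.42 ± 0.05 (SD, n = 4). KLK7 lost its call, with a difference of 0.45 to 0.51, without parental replicate 1, 2 or 4 (limma adjusted p = 0.0549, 0.0547 and 0.0775), without the selected array of R7 (limma adjusted p = 0.0651) and when all 14 arrays were fitted together (limma adjusted p = 0.103).

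KLK5 and KLK7 were thus 2 of 10 members called higher for selected against parental, with 0 called lower. Over all genes 5.03% were called higher and 1.89% lower, 6.92% in all. They were also the 2 members whose selected arrays all lay above all parental arrays, which 6.81% of all genes did. The median difference of the 10 members was -0.03, against -0.01 over all genes. The parental arrays are also those of the comparison known when the members were chosen. These counts, and the p-values of KLK5 and KLK7, are therefore not independent of that choice.

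**Figure D1:**
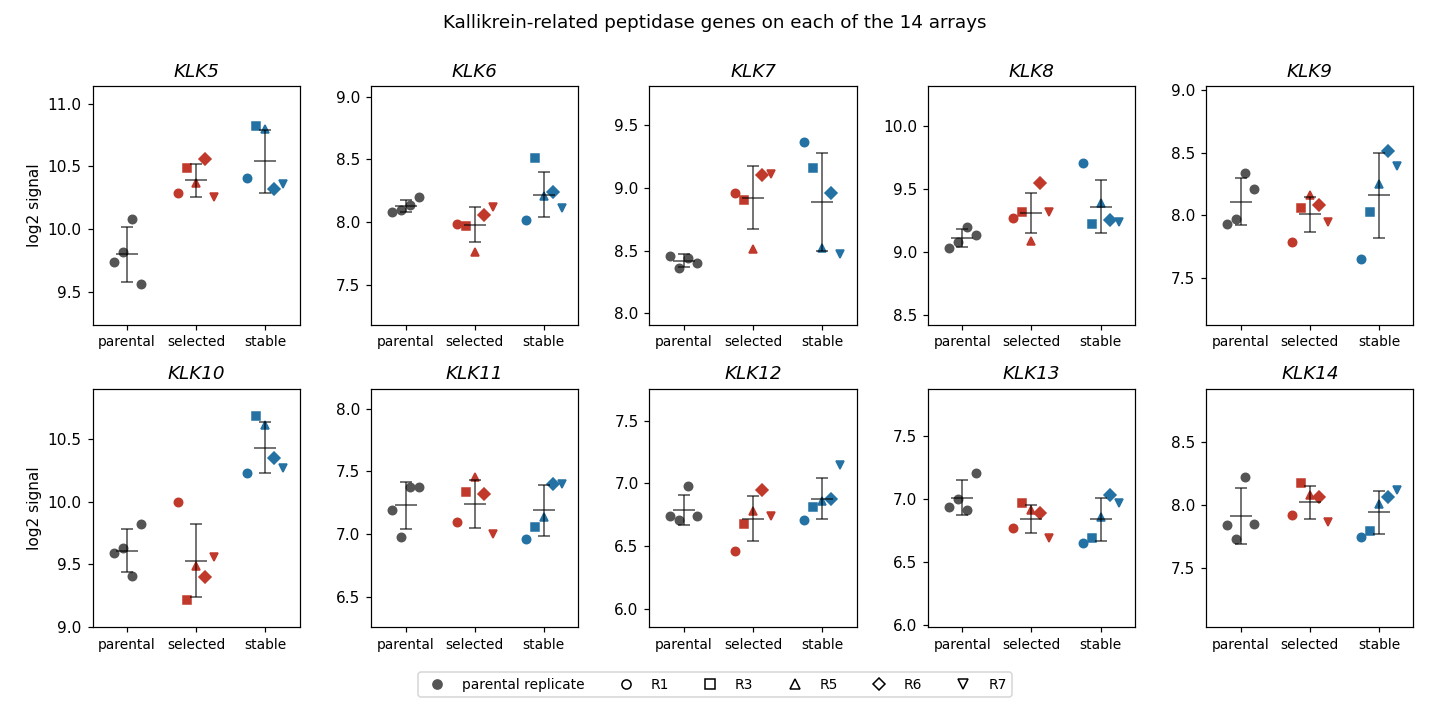
Log2 signal (vertical axis, each panel spanning the same width) of the 10 genes on each array, by group (horizontal axis); points are arrays, marker shapes name the subline, and bars give the mean ± SD of 4 parental, 5 selected and 5 stable arrays. KLK5 and KLK7 lie above every parental array in both resistant states, KLK7 only just so in R5 and in the stable array of R7. KLK8 and KLK10 lie above every parental array in the 5 stable arrays, while KLK9 and KLK11 to KLK14 overlap between groups.

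KLK10, also named normal epithelial cell-specific 1, had the widest range of any member, 1.46 over the 14 arrays. Parental arrays read 9.59, 9.63, 9.41 and 9.82, and selected arrays read 10.00, 9.22, 9.49, 9.40 and 9.56 in the order R1, R3, R5, R6, R7. Selected and parental arrays overlapped, with R1 above the highest parental array and R3 and R6 below the lowest. Their difference was -0.08 (SE 0.14, 95% interval -0.38 to 0.23, limma adjusted p = 0.837). The stable arrays of the same sublines read 10.23, 10.68, 10.61, 10.35 and 10.27, all above every parental and every selected array.

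Between the 2 states of the same sublines KLK10 was lower in selected cells by the fit, at -0.89 (SE 0.14, limma adjusted p = 0.0139), from a stable mean of 10.43 ± 0.20 (SD, n = 5) to a selected mean of 9.53 ± 0.29 (SD, n = 5). Its stable arrays are those of the comparison for which the gene was noted, so this test is not independent of that choice. Selected was lower in 5 of 5 sublines, by -0.24 in R1, -0.71 in R7, -0.94 in R6, -1.12 in R5 and -1.46 in R3. With subline as a block the call remained (limma adjusted p = 0.0214). It was lost without both arrays of R7, at -0.94 (limma adjusted p = 0.0913, and adjusted p = 0.0685 with the block), and at -1.01 when the block and the olfactory receptor mean were fitted together (limma adjusted p = 0.534). With R7 left out and no block, and with the block and the olfactory receptor mean, 0 of 18398 genes were called. With R7 left out and the block kept, 159 genes were called and KLK10 was not.

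KLK10 was the 1 member of 10 called for selected against stable, where 0.614% of all genes were called lower, 1.54% higher and 2.16% in all. With the block 906 genes in place of 397 passed. KLK10 was likewise the 1 member whose selected arrays all lay below all its stable arrays, which 1.33% of genes did. Both counts use the stable arrays for which KLK10 was noted, so they describe the gene and nothing more is read from them. KLK5 differed by -0.15 (SE 0.11, 95% interval -0.40 to 0.10, limma adjusted p = 0.608) and KLK7 by 0.02 (SE 0.18, 95% interval -0.37 to 0.41, limma adjusted p = 0.973), and neither passed. The median difference of the members was -0.10, against 0.00 over all genes.

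**Figure D2:**
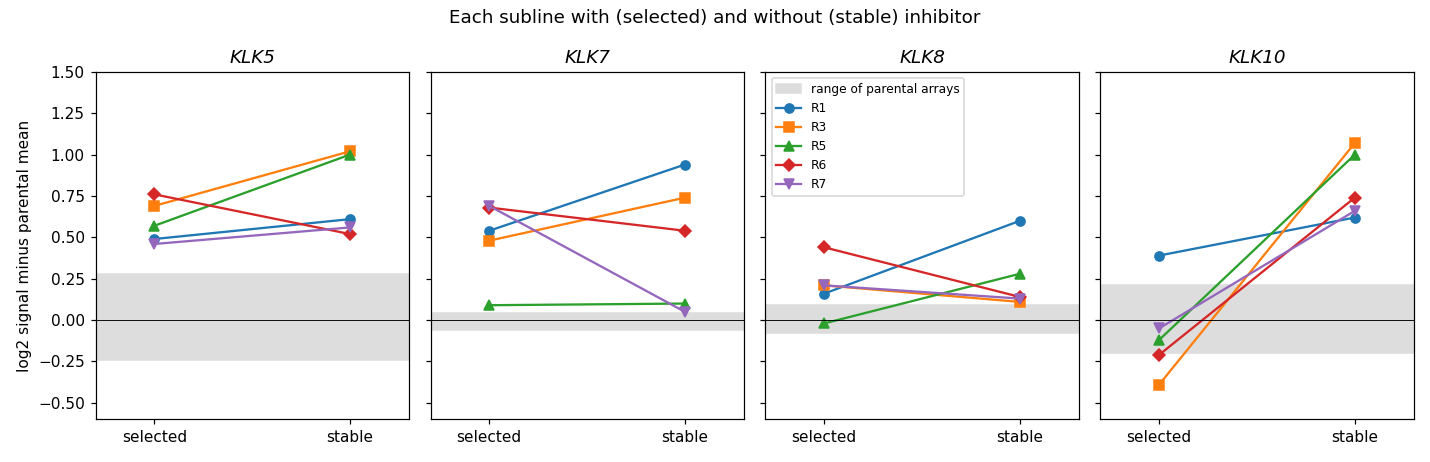
Log2 signal minus the parental mean (vertical axis) of KLK5, KLK7, KLK8 and KLK10 in the selected and stable array of each subline (horizontal axis), joined by a line per subline; the grey band is the range of the 4 parental arrays. All 5 lines rise for KLK10, and for KLK7 the line of R5 stays near the band while that of R7 falls to it.

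Stable cells are set beside parental cells here by their levels alone. In the order R1, R3, R5, R6, R7 the stable arrays read 10.41, 10.82, 10.80, 10.32 and 10.36 for KLK5, and its mean of 10.54 ± 0.25 (SD, n = 5) lay 0.75 above the parental mean. KLK10 lay 0.82 above it. KLK7 read 9.36, 9.16, 8.52, 8.96 and 8.47 in the same order, a mean difference of 0.48 in which R1, R3 and R6 were high and R5 and R7 sat next to the parental arrays. KLK8, a trypsin-like protease known as neuropsin, read 9.71, 9.22, 9.39, 9.25 and 9.24 against 9.03, 9.08, 9.20 and 9.13 in parental arrays, a mean difference of 0.25. In all 4 of these genes every stable array lay above every parental array, as 0.826% of all genes did, while 0 of 10 members were called by limma and 0.00544% of genes were (1120 genes had an unadjusted p under 0.05). Since the choice was made with this comparison in view, these counts only describe it. The median difference of the members was 0.09, against 0.00 over all genes.

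KLK8 and KLK6, both also known from the brain, did not pass. For KLK8 selected arrays read 9.27, 9.32, 9.09, 9.55 and 9.32, above the highest parental array in 4 of 5, and the difference of 0.20 (SE 0.09, 95% interval 0.00 to 0.40) did not pass (limma adjusted p = 0.235). KLK6, known as neurosin, read 8.08, 8.10, 8.14 and 8.20 in parental arrays. In selected arrays it read 7.99, 7.97, 7.76, 8.06 and 8.12 and in stable arrays 8.02, 8.51, 8.21, 8.24 and 8.11. Its differences were -0.15 (SE 0.08, limma adjusted p = 0.365) for selected against parental and -0.24 (SE 0.10, limma adjusted p = 0.276) for selected against stable, the latter with the selected array lower in 4 of 5 sublines, by up to -0.54 in R3.

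KLK9 and KLK11 to KLK14 were not called in any of these comparisons. KLK14, which belongs to the skin cascade with KLK5, lay between 7.73 and 8.22 on the 4 parental, between 7.86 and 8.17 on the 5 selected and between 7.74 and 8.12 on the 5 stable arrays. KLK13 had a parental range of 6.91 to 7.21, a selected range of 6.69 to 6.97 and a stable range of 6.65 to 7.03, with 3 of 5 arrays of each resistant state below the lowest parental one. Differences of the 5 genes ran from -0.17 to 0.11 for selected against parental (limma adjusted p = 0.318 to 0.985), from -0.17 to 0.09 for stable against parental and from -0.16 to 0.07 for selected against stable (limma adjusted p = 0.522 to 0.989). The 95% intervals of KLK14, from -0.13 to 0.34 for selected against parental, and of KLK11, from -0.24 to 0.26, show the sizes that these arrays do not set apart from 0.

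The levels of KLK9, KLK11, KLK12 and KLK14 followed the background of the arrays. Across the 14 arrays Pearson's r with the olfactory receptor mean was 0.89 for KLK12, 0.85 for KLK9, 0.67 for KLK11 and 0.66 for KLK14, and 0.32 for KLK13. It was -0.33 to 0.17 for KLK5, KLK7, KLK8 and KLK10, and 0.20 for KLK6. All genes share the same 14 arrays, so these values describe the arrays and carry no p. KLK9 was lowest in R1, at 7.79 and 7.65, and highest in the stable arrays of R6 and R7, at 8.51 and 8.39, as the olfactory receptor mean was lowest in the 2 arrays of R1 among resistant ones.

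**Figure D3:**
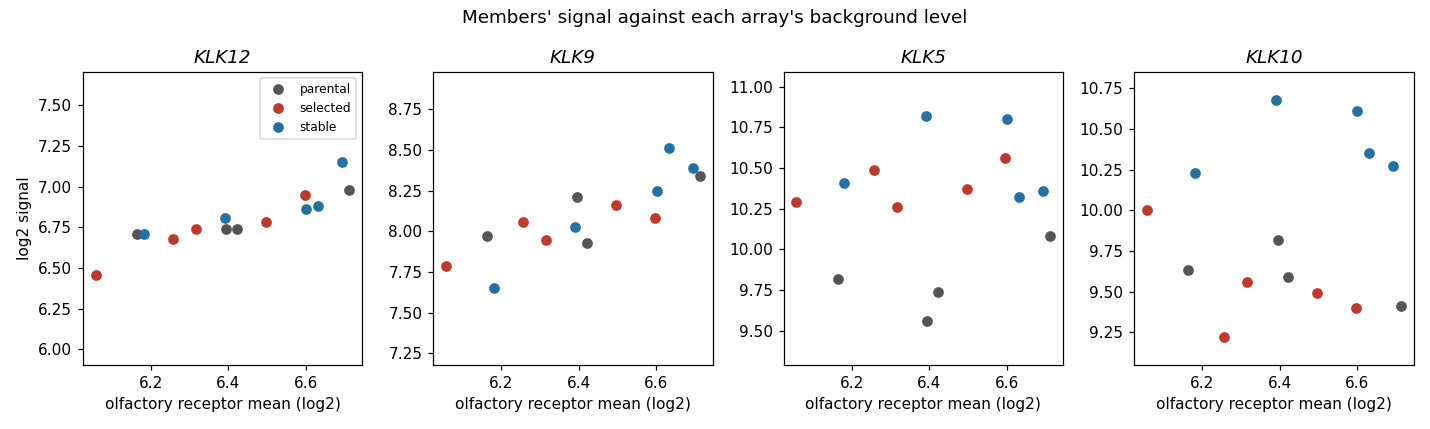
Log2 signal of KLK12, KLK9, KLK5 and KLK10 (vertical axis) against the mean log2 signal of 337 olfactory receptor genes on the same array (horizontal axis), with colours for parental, selected and stable arrays. KLK12 and KLK9 rise with the background level (r = 0.89 and 0.85), while the parental arrays of KLK5 lie lowest and the stable arrays of KLK10 highest across the background range.

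By subline, the mean of both arrays lay above the parental mean in 5 of 5 sublines for KLK5, by 0.51 in R7 to 0.86 in R3. For KLK7 it lay above by 0.74 in R1, 0.61 in R3, 0.61 in R6, 0.38 in R7 and 0.10 in R5. KLK8 was above by 0.38 in R1 and 0.29 in R6, and by 0.13 to 0.17 in the others. For KLK10 the subline means, 0.26 to 0.50 above parental, average a high stable and a low selected array. These differences use the stable and parental arrays again. Of the 10 members 0 were called in each of the 5 sublines against parental, where 0.196% of genes were called in R3, 0.0598% in R5 and 0.0% in R1, R6 and R7. At an unadjusted limma p under 0.05 it was 5 of 10 in R1, 2 in R3, R6 and R7 and 1 in R5. Of all genes 3450, 1712, 1354, 965 and 1152 were, in the same order. These fits treat the 2 states of a subline as replicates, so a difference between states widens the spread. KLK10 had an SE of 0.4 in each of them, against 0.14 for selected against stable. Its lack of a call is therefore not read as a result, and the counts only describe these arrays.

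A test among sublines, which uses the 10 resistant arrays and no parental one, called 0 of 10 members and 0.12% of genes. The sublines differed most in KLK7, with subline means 0.64 apart (limma F test adjusted p = 0.386), and in KLK9, 0.57 apart (limma F test adjusted p = 0.294). For KLK5 and KLK10 they were 0.34 and 0.24 apart (limma F test adjusted p = 0.539 and 0.938). None of these differences passed, and 1 of 10 members, KLK9, had an unadjusted p under 0.05 (2914 of all genes). The level of KLK9 followed the olfactory receptor mean (r = 0.85 over the 14 arrays). With that mean as a covariate the test among sublines called 0 of 18398 genes.

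KLK7 and KLK8, whose genes stand next to each other, varied together across arrays (r = 0.73 over 14 arrays, and 0.57 after the group means were removed). The other pairs of adjacent members had lower r over the 14 arrays. It ran from -0.33 for KLK8 with KLK9 and -0.26 for KLK10 with KLK11 to 0.49 for KLK11 with KLK12. For KLK5 and KLK7 r was 0.56 over the 14 arrays and -0.01 after the group means were removed. For KLK5 and KLK10 it was 0.44 and -0.03, and of the 2 resistant states only the stable one lay above parental arrays in both genes. Among KLK9 and KLK11 to KLK14, r over the 14 arrays ran from 0.22 for KLK12 with KLK13 and 0.29 for KLK13 with KLK14 to 0.76 for KLK9 with KLK11 and 0.80 for KLK11 with KLK14. The platform annotation lists 1 transcript record under both KLK8 and KLK9, so signal of a joint transcript could reach both rows. Between these 2 genes r was -0.33 over the 14 arrays and -0.43 after the group means were removed. Whether a joint transcript was present was not tested.

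None of the neighbours described here was called by limma in the 3 comparisons. KLKP1, a measured pseudogene inside the cluster, is not among them. The other 5 kallikrein genes of the cluster, KLK1, KLK2, KLK3, KLK4 and KLK15, differed by -0.14 to -0.05 for selected against parental, -0.08 to 0.05 for stable against parental and -0.12 to -0.02 for selected against stable, with 0 of 5 called in each and 0 at an unadjusted p under 0.05. KLK3 encodes prostate-specific antigen and KLK2 its close relative. Their r with the olfactory receptor mean was 0.70 to 0.87. Of the 10 nearest measured genes on each side, 0 of 20 were called in any of the 3 comparisons, and their differences ran from -0.18 to 0.17. At an unadjusted p under 0.05 it was 1 of 20 for selected against parental, ETFB, a mitochondrial electron carrier, at -0.16, where 3735 of 18398 genes were. In the 2 comparisons of stable cells, with parental and with selected ones, it was 0 of 20, where 1120 and 2809 genes were. The nearest genes were TMEM277P and C19orf48P before KLK1 (0.00 and -0.03 for selected against parental) and CTU1, which modifies transfer RNA, and SIGLEC9, an immune receptor, after KLK14 (0.03 and -0.18).

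**Figure D4:**
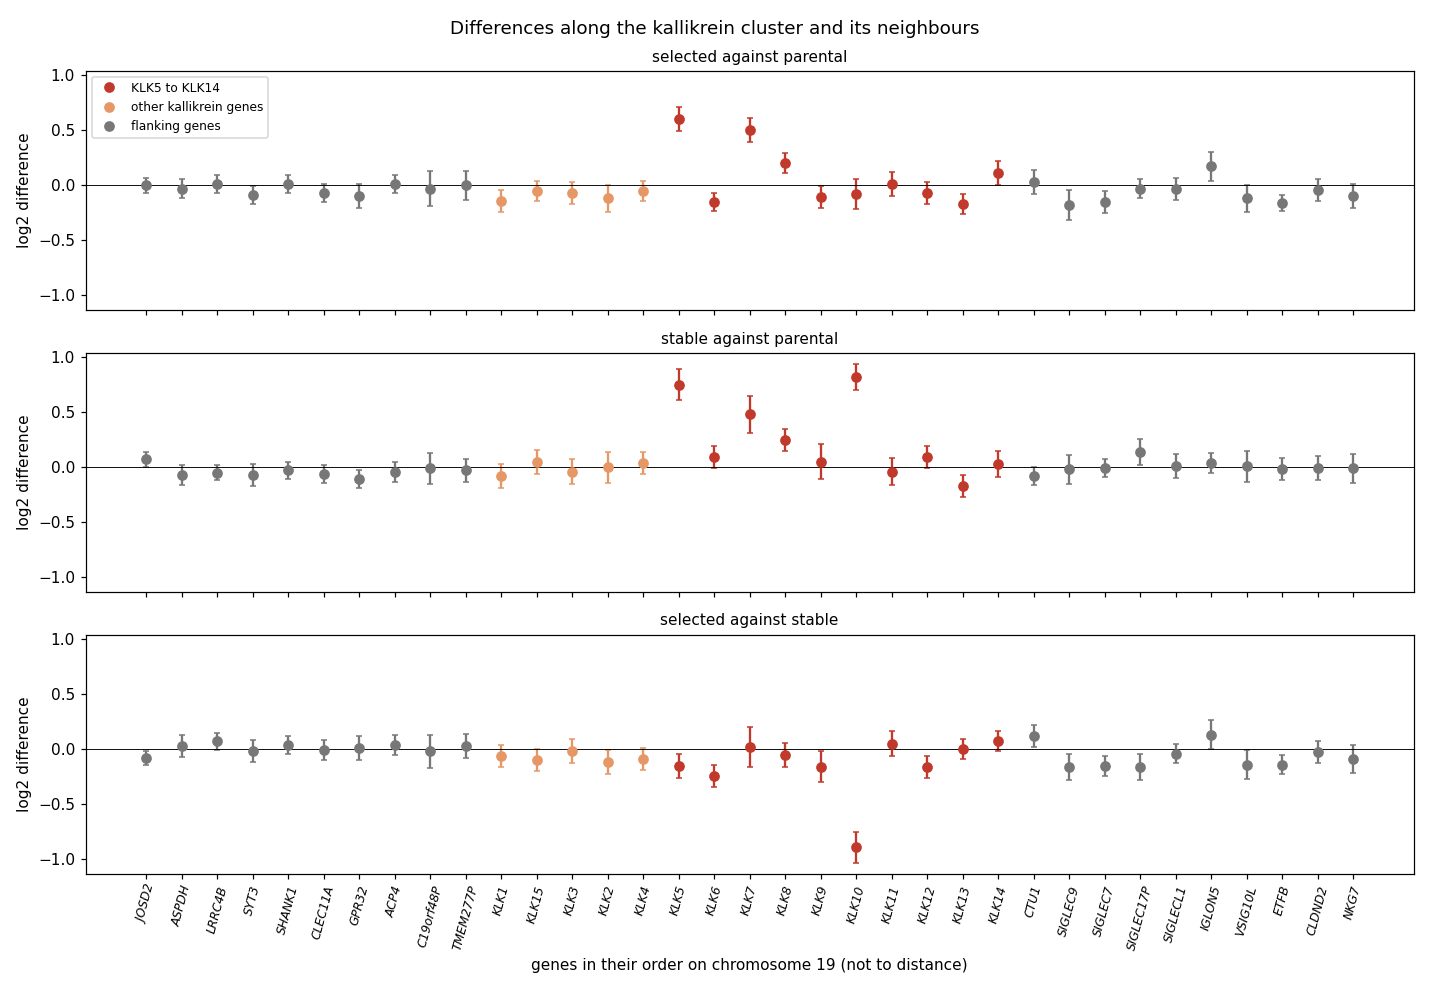
Log2 difference (vertical axis, bars ± 1 SE of the limma fit) of the kallikrein genes and the 10 nearest measured genes on each side, in their order on chromosome 19 (horizontal axis, not to distance), for the 3 comparisons. KLK5 and KLK7 stand at 0.60 and 0.50 for selected against parental and KLK10 at -0.89 for selected against stable. The differences of the kallikrein genes outside KLK5 to KLK14 and of the flanking genes stay within -0.18 and 0.17.

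Genes that work with the kallikreins were read from 5 lists, which were chosen with earlier results of these arrays known. The counts and p-values of these lists, here and below, are therefore not independent of that choice and only describe these arrays. For selected against parental, 12 of the 89 measured genes of the lists were called, where 5.03% of all genes were called higher and 1.89% lower. At an unadjusted limma p under 0.05 it was 18 of 89, against 3735 of all 18398 genes. Of 19 measured protease inhibitors 4 were called higher and 1 lower in selected than in parental cells, with a list median of -0.03. PI3, which encodes elafin, an inhibitor of neutrophil elastase, rose by 0.89 (SE 0.17, limma adjusted p = 0.00983). SPINT1, an inhibitor of the protease matriptase, rose by 0.45 (SE 0.09, limma adjusted p = 0.0125), and SERPINB5, the serpin maspin, by 1.05 (SE 0.24, limma adjusted p = 0.0228). SERPINB5 lost its call without parental replicate 1, 3 or 4 or the selected array of R7 (limma adjusted p up to 0.0735). SLPI, a secreted inhibitor of leukocyte proteases, was higher by 0.45 (limma adjusted p = 0.047), and lost this call in 10 of 17 settings, among them quantile normalization, median centring and the omission of any 1 parental array (limma adjusted p up to 0.177). SERPINA1, alpha-1-antitrypsin, fell at -0.61 (SE 0.12, limma adjusted p = 0.0138).

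Of 12 measured proteases of epithelial activation cascades 1 was called higher and 0 lower in selected cells. This was PLAU, urokinase, at 1.07 (SE 0.19, limma adjusted p = 0.00732). Its selected arrays read 10.99, 10.27, 10.24, 10.74 and 11.17, against 9.86, 9.65, 9.35 and 9.57 in parental arrays. ST14, which encodes matriptase, differed by 0.30 (limma adjusted p = 0.156) and PRSS8, prostasin, by 0.23 (limma adjusted p = 0.376).

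Of 24 measured substrates and receptors 2 were called higher and 3 lower in selected cells. The desmosomal cadherins DSG2 and DSC2 rose by 0.63 (limma adjusted p = 0.00948) and 0.51 (limma adjusted p = 0.0252), and DSC2 lost its call in 6 of 17 settings, among them without parental replicate 1, 3 or 4 and without the selected array of R3 or R7 (limma adjusted p up to 0.157). F2R, the thrombin receptor PAR1, fell at -1.08 (SE 0.19, limma adjusted p = 0.007), from 10.35, 9.85, 10.00 and 9.67 in parental arrays to 9.40, 9.08, 8.46, 8.58 and 8.91 in selected ones. Its stable arrays read 9.71, 9.80, 10.43, 9.17 and 9.97 and overlapped the parental ones. IGFBP2, a binding protein of insulin-like growth factors, fell at -0.50 (limma adjusted p = 0.0136, lost when all 14 arrays were fitted together, limma adjusted p = 0.207). F2RL2, a receptor of the same family as F2R, was lower at -0.73 (limma adjusted p = 0.0445) and lost its call in 10 of 16 settings, including without any 1 parental array (limma adjusted p up to 0.10).

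Of 12 measured hormone and retinoid receptors 0 were called by limma in either direction in selected cells, and 0 had an unadjusted p under 0.05, with VDR, the vitamin D receptor, at 0.16 (limma adjusted p = 0.456). Of 22 measured genes of epidermal differentiation 1 was called higher and 0 lower. This was the basal keratin KRT5 at 1.26 (SE 0.27, limma adjusted p = 0.0196), which lost its call without parental replicate 1 or 3 or the selected array of R7 (limma adjusted p up to 0.057). The list medians for selected against parental were 0.03 for epidermal differentiation, 0.02 for the receptors, 0.01 for the substrates and -0.01 for the proteases, against -0.01 over all genes. In the comparisons of stable cells with parental and with selected cells 0 of 89 measured genes of the 5 lists were called by limma, and 5 and 16 had an unadjusted p under 0.05, as 1120 and 2809 of all 18398 genes had.

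The genes whose levels were most like those of KLK10 over the 14 arrays, among 2085 genes with a range of at least 1, were ADAMTS5, an aggrecan-cleaving metalloproteinase (r = 0.87), GLMP, a lysosomal membrane protein (r = 0.87), DCBLD2 (r = 0.87), EMP1, an epithelial membrane protein (r = 0.83), and ABHD11 (r = 0.81). ADAMTS5 had means of 7.58 in parental, 7.48 in selected and 8.85 in stable arrays, and its stable arrays of R3 and R5, at 9.85 and 9.74, were the highest, as those of KLK10 were. Since ADAMTS5 was picked by its r over these same arrays, such shared highs follow from the choice. The genes most like KLK5 were NID2, a basement membrane protein (r = 0.84), SEL1L3 (r = 0.83), CLGN, a chaperone (r = 0.82), PLSCR1 (r = 0.82) and SNAPC1 (r = 0.79). Over the 10 resistant arrays alone r with KLK5 was between 0.35 and 0.64 for these 5 genes. For the 5 genes of KLK10 it was between 0.82 and 0.93. The difference of KLK5 lay between parental and resistant arrays, so it drops out with the parental arrays. The difference of KLK10 between selected and stable arrays remains among the 10. The ranges therefore cannot show which genes vary together more closely. For these genes r after the group means were removed was not computed. These correlations describe shared arrays and carry no p.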

How the data were processed

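RNA of 4 parental and 10 resistant OVCAR-3 arrays was labelled with biotin by the Affymetrix whole-transcript kit, per the labels' protocols. The deposited values are log2 signals, the base being taken from their range. How the authors corrected background, normalized and summarised them is not given in the sources used here. Array medians lay between 7.54 and 7.68.

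The platform annotation names 1 gene for 19148 of 32295 table rows, several for 1376 and none for 11771. Current symbols came from a RefSeq table (GRCh38.p14), matched on gene ID, which held 19118 of the 19148. The row of highest mean was kept per gene, which left 18398 genes. No filter was applied. With the 40% dimmest genes left out 7 of 10 members remained, KLK11, KLK12 and KLK13 falling out.

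Two-sided moderated tests came from lmFit and eBayes of limma 3.58.1 (R 4.3.3). P-values were adjusted by Benjamini-Hochberg across the 18398 genes, and adjusted p under 0.05 was called. Condition comparisons used only the arrays of their 2 groups, each subline against parental all 14 arrays as 6 groups, and the F test among sublines the 10 resistant arrays with a term for growth condition. The same subline was arrayed in both states, so the labels pair selected and stable arrays. Deviations of paired arrays from their group means correlated at 0.636 (R1), 0.546 (R6), 0.371 (R5), 0.05 (R3) and -0.468 (R7). The selected arrays of R3, R5 and R7 correlated more with the stable array of another subline. These were R5 for R3 (0.118), R7 for R5 (0.637) and R1 for R7 (0.397), so the pairing rests on the labels there. Simulated data with known changes were also put through each fit. They held independent noise per gene and array, without a shared background or subline structure, and no result here rests on them.

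The members, the 5 gene lists, the 4 marker lists and the motifs were chosen with earlier results of these data known. Genes named were the members, the other kallikrein genes, the 2 nearest measured neighbours on each side, up to 4 genes of each list by smallest p, and the 5 genes of highest Pearson's r with each of the 2 members of widest range. Further list genes are named where they were called. Alternatives were quantile normalization, median centring, array weights, trended and robust variance, the dim gene filter, a gene's rows averaged, the olfactory receptor mean as a covariate, 1 fit of all arrays, the subline block, no growth condition term and leaving out arrays. KLKP1, a pseudogene inside the cluster, was not described.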

Additional observations from a re-analysis of the deposited data

Results flagged for a closer look

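KLK12 read 6.98 in parental replicate 3, against 6.74 for the next highest parental array, a gap that takes up 0.88 of the range of the 4 arrays. The olfactory receptor mean of that array was the highest of all 14. It was the only such array among 30 combinations of member and group, and about 1 in 20 would be marked by chance.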

How the results depend on the processing

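For selected against parental the number of members called, 2, became 1 with 1 fit of all arrays and 1 to 2 when single arrays were left out. For stable against parental, the comparison known when the members were chosen and so a description only, it was 0, but 2 with array weights (KLK5 and KLK10), 1 with the background mean fitted as a covariate (KLK10) and 0 to 1 with single arrays left out. For selected against stable it was 1 with subline as a replicate block (KLK10 at -0.89), and became 0 with the block and the olfactory receptor mean and 0 without both arrays of R7, with or without the block. Single arrays left out gave 1 throughout. For the sublines against parental, array weights gave 2 in R1 and R6 (KLK5 and KLK7) and 1 in R5 (KLK5). In R3 trended and robust variance, leaving out dim genes and the olfactory receptor mean each gave 1 (KLK5), and single arrays left out gave 0 to 1. R7 and the F test among sublines stayed at 0 in 13 and 18 settings. KLK10 for selected against parental ranged from -0.19 to 0.00 when single arrays were left out, reaching 0.00 without the selected array of R3. The block changed no other call of a member. Members have 1 row each, and a small change may not show in those whose signal followed the arrays' background. Whether these members were expressed above background was not tested.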
